A study of Homo sapiens with 2 samples.

Results

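High-mitochondrial C1-sgControl cells were compared with the other cells of the same line, on the transcripts that do not come from the mitochondrial genome. Cells were selected by their barcodes: the most abundant hashtag had at least 150 unique molecular identifiers (UMIs) and at least 10 times the next hashtag, and at least 500 genes were detected. Of 10336 barcodes in the data, 2080 met this rule for hashtag 1, the antibody tag given to C1-sgControl. Over 20% of the gene UMIs came from mitochondrial (MT-) genes in 366 of these cells, which are called high cells here, and at most 20% in 1714, called low cells. The same split gave 56 high and 2320 low cells in C1-sgEED (hashtag 3), and 62 high and 2321 low cells in C1-sgKMT2D (hashtag 4).

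The study measured single-cell RNA in a pool of edited lines made from C1, an epithelial derivative of HMLER. HMLER is an established line of human mammary epithelial cells transformed with defined genes, so all groups share that background. C1-sgControl received a control guide. C1-sgEED lacks EED, a core subunit of Polycomb repressive complex PRC2, and C1-sgKMT2D lacks KMT2D, a histone methyltransferase of enhancers. The labels describe the sequenced pool as mixed clones and give neither the number of clones nor a time after editing. All lines grew in the same mammary epithelial medium with insulin, EGF and hydrocortisone, were stained with hashtag antibodies, and were loaded together. Each line is 1 sample in 1 library, so no test between groups of samples can be made, and every interval below covers counting error only.

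Human mitochondrial DNA encodes subunits of the respiratory chain and of ATP synthase, together with the ribosomal and transfer RNAs needed to translate them inside the organelle. The remaining respiratory chain subunits and all proteins of the mitochondrial ribosome are made in the cytosol from nuclear genes and imported. The share of MT- transcripts in a droplet is widely used as a quality measure of single-cell libraries, because mitochondria keep their RNA inside their own membranes, whereas most other messenger RNA is free in the cytosol or bound to ribosomes and the endoplasmic reticulum. The share is also high in healthy cells that are rich in mitochondria.

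The 3 genes with the highest ratio of high to low cells, among genes of at least 50 CPM, were nuclear copies of the mitochondrial 16S ribosomal RNA gene, MT-RNR2 (chrM, bases 1671 to 3229, GRCh38). These MTRNR2-like genes carry a short reading frame related to humanin, a peptide encoded within MT-RNR2. The stretch of 72 bases that holds this frame is printed to show how closely some of the nuclear copies match the mitochondrial sequence. It is given 5′ to 3′ in the direction of each gene, from GRCh38 with GENCODE release 29, and capitals mark bases that differ from MT-RNR2 at the same position.
MT-RNR2 (chrM:2633-2704, plus strand): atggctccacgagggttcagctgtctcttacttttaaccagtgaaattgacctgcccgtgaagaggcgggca
MTRNR2L12 (chr3:96617202-96617273, minus strand): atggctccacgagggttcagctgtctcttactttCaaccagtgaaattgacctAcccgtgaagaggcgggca
MTRNR2L8 (chr11:10508155-10508226, minus strand): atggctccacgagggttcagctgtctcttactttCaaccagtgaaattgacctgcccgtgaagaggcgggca
MTRNR2L1 (chr17:22524062-22524133, plus strand): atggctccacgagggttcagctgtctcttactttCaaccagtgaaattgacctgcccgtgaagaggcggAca
MTRNR2L10 (chrX:55181923-55181994, minus strand): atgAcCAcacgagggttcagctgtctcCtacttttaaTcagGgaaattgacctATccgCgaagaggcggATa
Of the 72 bases, 2 differ in MTRNR2L12, 1 in MTRNR2L8, 2 in MTRNR2L1 and 11 in MTRNR2L10. Over the whole transcript, identity to MT-RNR2 was 95.04% for MTRNR2L12, 93.0% for MTRNR2L8, 88.5% for MTRNR2L1 and 80.0% for MTRNR2L10. MTRNR2L3, a copy that was tested but is not printed, differs at 9 of the 72 bases and had 78.6% identity. MT-RNR2 itself is not among the 13 MT- genes of the count table, which are the protein-coding ones. The counts alone therefore do not show whether UMIs of a nuclear copy came from that copy or from 16S ribosomal RNA. How the reads were placed was not tested.

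High cells made up 17.6% of C1-sgControl (Clopper-Pearson 95% interval 15.98 to 19.3). The C1-sgEED line had 2.36% (1.79 to 3.05) and the C1-sgKMT2D line 2.60% (2.00 to 3.32). This difference between lines was part of the choice of cells and is given as a description. Because the rule drops cells with few genes, it also drops high cells: among barcodes tagged with hashtag 1 that had under 500 genes, 228 of 252 were above 20%. Without the minimum of genes, 25.5% of the C1-sgControl barcodes were high, against 5.81% of those of C1-sgEED and 5.08% of those of C1-sgKMT2D. C1-sgControl stayed above both knockouts with a minimum of 1000 genes, at 4.96% against 0.423% and 0.563%.

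**Figure D1:**
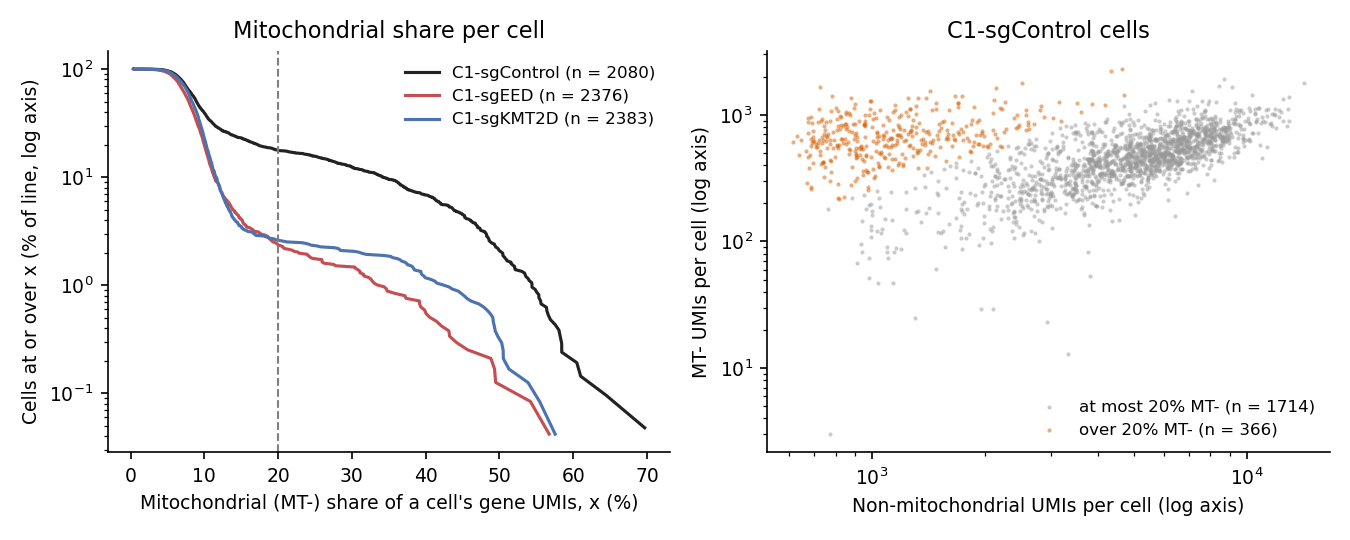
Left, percentage of cells of each line (log axis) at or above a given MT- share of gene UMIs, with the 20% limit dashed; right, MT- UMIs against non-MT- UMIs per C1-sgControl cell (log axes), 1 point per cell. The C1-sgControl curve runs above both knockouts beyond the limit, and the 366 high cells lie to the left of most low cells at similar or higher MT- UMIs.

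The cells were split on the MT- share, so lower non-MT- and higher MT- counts in high cells are values that the rule used, and they are given as a description. The median number of non-MT- UMIs per cell was 1080.5 in high cells and 5210.5 in low cells, 4.82-fold lower, and 85.8% of the high cells lay below the 5th percentile of the low cells. The size of this difference depends on the minimum of 500 genes: it was 2.68-fold with at least 1000 genes and 6.42-fold with no minimum. MT- UMIs were 1.45-fold higher, with medians of 673.5 and 466. Hashtag UMIs, which come from antibodies on the cell surface, were similar, with medians of 1615.5 in high and 1540 in low cells. Both knockouts showed the same combination. In C1-sgEED the medians were 1099.5 against 3607.5 non-MT- UMIs and 539 against 312 MT- UMIs, and in C1-sgKMT2D they were 1036.5 against 5075 and 734 against 457. Hashtag UMIs of the knockouts were slightly lower in high cells, at 1220 against 1393 in C1-sgEED and 1338 against 1624 in C1-sgKMT2D.

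Low cells of the same depth differed from high cells. Among C1-sgControl cells with 800 to 1200 non-MT- UMIs, ribosomal protein genes held a median of 24.8% of non-MT- UMIs in the 33 low cells and 9.40% in the 151 high cells. MALAT1 held 0.877% in these low cells and 6.22% in these high cells. Hashtag UMIs were also fewer in these low cells, with a median of 488 against 1620 in the high cells of that depth. Their MT- UMIs had medians of 123 and 641, an order that the split on the MT- share fixes at a given depth. Across all low cells, hashtag UMIs and non-MT- UMIs went together (Spearman's rho 0.53, n = 1714 cells of 1 library), and across high cells they did not (rho 0.06, n = 366). These are descriptions over cells that share a library. High cells also spread their UMIs over more genes. After thinning each cell to 1000 non-MT- UMIs, the median was 692 genes in 211 high cells and 583 in 1697 low cells, with 155 high and 17 low cells left out as too shallow. Unthinned medians were 751.5 and 1917 genes.

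The values changed along the MT- share on both sides of the limit, though not in the same direction at every step. Just below it, 32 C1-sgControl cells of 18 to 20% had medians of 2442.5 non-MT- UMIs, 19.8% ribosomal protein UMIs and 2.36% MALAT1. Just above it, 14 cells of 20 to 22% had 1642 non-MT- UMIs, 12.8% ribosomal protein UMIs and 3.51% MALAT1. The 43 cells above 50% had 811 non-MT- UMIs, 8.67% ribosomal protein UMIs and 6.02% MALAT1. MALAT1 was highest, at 7.20%, in the 99 cells of 40 to 50%. The 1183 cells of 5 to 10% had 5652 non-MT- UMIs, 26.0% ribosomal protein UMIs and 0.871% MALAT1. At the other end, the 77 cells of at most 5% had 4407, 25.7% and 1.02%. The median hashtag count was lowest, at 1064, in the bin just above the limit and highest, at 1891, above 50%.

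**Figure D2:**
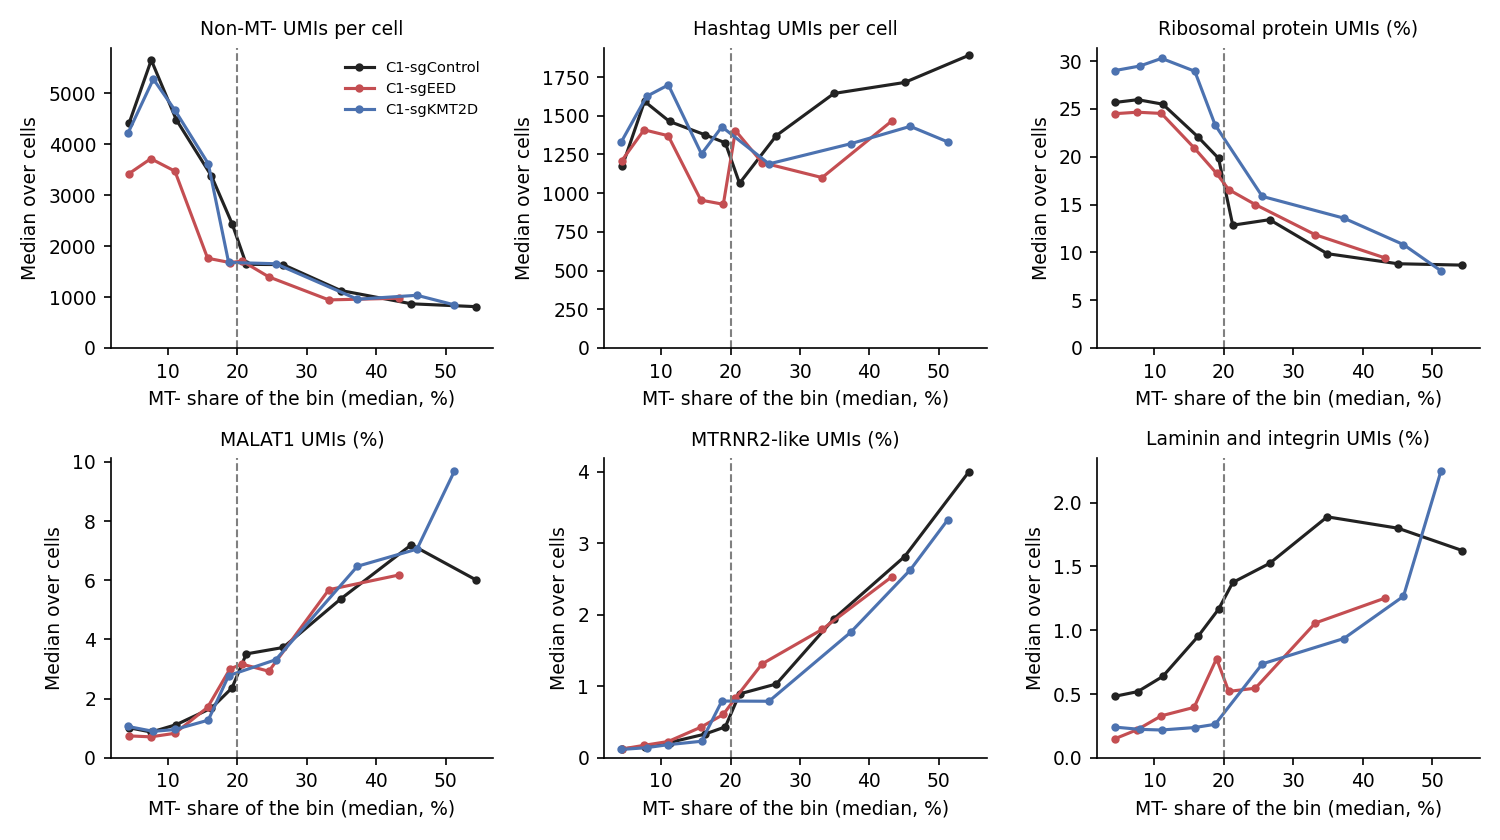
Medians over cells in bins of MT- share, for each line, of non-MT- UMIs, hashtag UMIs and the percentage of non-MT- UMIs from 4 gene groups, plotted at the bin's median MT- share; bins hold at least 5 cells. In C1-sgControl, ribosomal protein UMIs go from 26.0% in the bin of 5 to 10% to 8.67% above 50%, while MALAT1 goes from 0.871% to 6.02%.

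The 13 mitochondrial messenger RNAs kept nearly the same proportions to each other. MT-CO2, a subunit of cytochrome c oxidase, was the most abundant, with 21.8% of MT- UMIs in high and 22.5% in low C1-sgControl cells. MT-ATP6, a subunit of ATP synthase, took 16.9% in high and 14.96% in low cells, a ratio of 1.13 (95% interval 1.12 to 1.14). The lowest ratios of shares were 0.90 for MT-ND5 (0.88 to 0.93) and 0.92 for MT-ND4 (0.91 to 0.93), both subunits of complex I. MT-ATP6 also had a larger share in high than in low cells of C1-sgKMT2D, with a ratio of 1.15 (1.13 to 1.18), while in C1-sgEED its ratio was 1.01 (0.99 to 1.04).

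The same 3 nuclear copies of the 16S gene, MTRNR2L12, MTRNR2L1 and MTRNR2L8, had the highest ratios when counts were scaled to CPM, the count that a gene would have if the non-MT- UMIs summed to 1e6. MTRNR2L12 was at 11156 CPM in high and 898 CPM in low C1-sgControl cells, 12.4-fold higher (12 to 12.9). MTRNR2L8 was at 5779 and 619 CPM, 9.33-fold higher (8.91 to 9.77), and MTRNR2L1 at 1045 and 98.6 CPM, 10.6-fold higher (9.48 to 11.8). MTRNR2L10, the least similar of the 4 sequences shown, was 5.83-fold higher (5.14 to 6.60). All 5 MTRNR2-like genes with a mean of at least 20 CPM over both groups were higher. MTRNR2L12 was 9.62-fold higher in high C1-sgEED cells and 12.8-fold in high C1-sgKMT2D cells. These counts went along with the MT- counts but not in proportion. Of the UMIs from MTRNR2-like and MT- genes together, MTRNR2-like genes gave 3.21% in high (3.15 to 3.28) and 1.84% in low C1-sgControl cells (1.81 to 1.87). With low cells weighted to the depths of the high cells, the log2 ratio of MTRNR2L12 was 2.06 in place of 3.63, that of MTRNR2L8 2.03 in place of 3.22 and that of MTRNR2L1 2.47 in place of 3.39. With at least 1000 genes per cell these ratios were 2.57, 2.32 and 2.18. The weighting by depth, here and below, rests on few low cells. Under 1000 non-MT- UMIs there were 17 low and 155 high C1-sgControl cells, and from 800 to 1200 there were 33 and 151. Weighted values are therefore imprecise.

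Across the nuclear genome, 3176 of 6477 genes tested were at least 1.5-fold higher in CPM in high C1-sgControl cells, a background of 49.0%, and 889 were at least 1.5-fold lower, 13.7%. A gene was tested when its mean over both groups was at least 20 CPM. With the 95% counting interval also clear of 1, 2895 (44.7%) were higher and 751 (11.6%) lower. The median gene had a log2 ratio of 0.54, and every other ratio is best read against it. The split between higher and lower depends on the scale: 78.1% of the genes past 1.5-fold were higher on this scale, 44.9% in CPM of all gene UMIs, 66.3% without ribosomal protein genes in the total, 82.2% without MALAT1 and NEAT1, and 48.9% relative to the median gene, where 28.4% of the genes tested were higher and 29.7% lower. The median log2 ratio on these scales was -0.08, 0.31, 0.63 and 0. It was -0.09 among genes of at least 100 CPM. Counted per cell and not in CPM, 96.6% of the genes tested had fewer UMIs in a high than in a low cell.

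**Figure D3:**
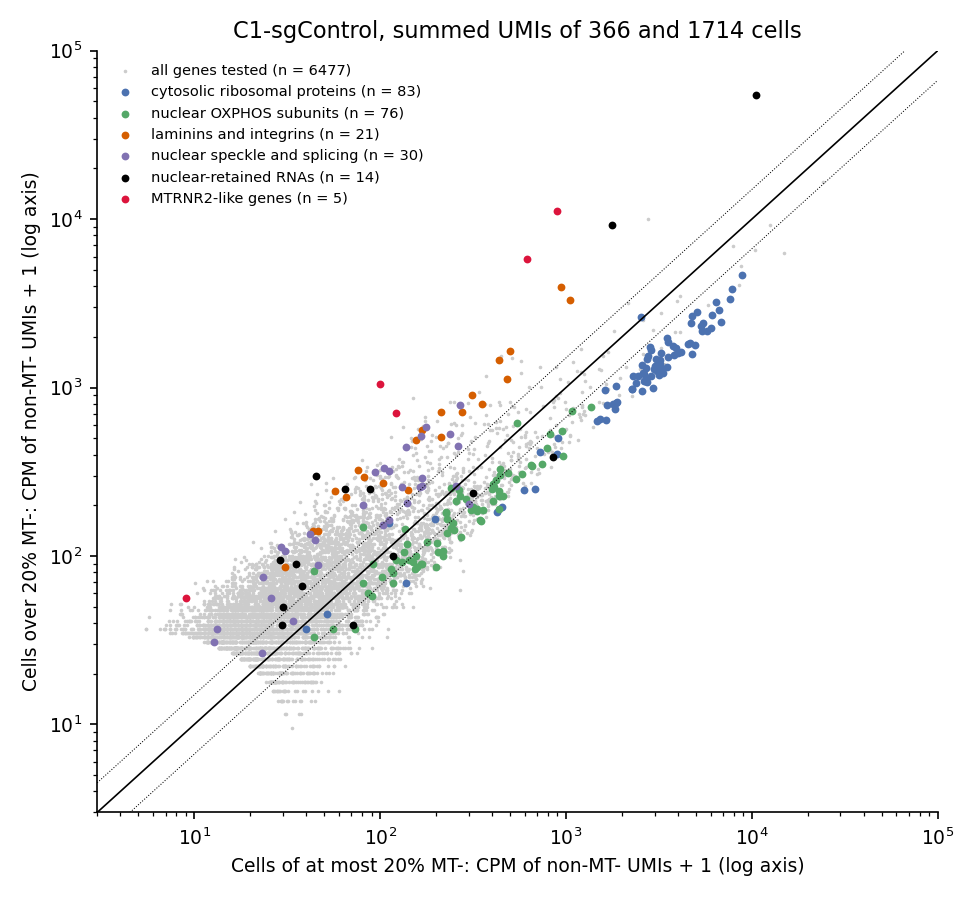
CPM of non-MT- UMIs plus 1 in low (x, log axis) and high (y, log axis) C1-sgControl cells, 1 point per gene tested, with 6 gene lists coloured; the solid line marks equal values and the dotted lines 1.5-fold. Ribosomal protein genes lie together below the line, while MTRNR2-like genes, MALAT1, NEAT1 and all 21 laminin and integrin genes lie above it.

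RNAs that stay in the nucleus were among the genes with higher levels. MALAT1 (chr11:65497688-65506516, plus strand), a long non-coding RNA of nuclear speckles, was at 54651 CPM in high and 10509 CPM in low cells, 5.20-fold higher (5.13 to 5.27). NEAT1 (chr11:65422774-65445540, plus strand), the scaffold RNA of paraspeckles, was at 9237 and 1772 CPM, 5.21-fold higher (5.04 to 5.39). MEG3, an imprinted non-coding RNA, was 6.71-fold higher (5.50 to 8.16), a log2 ratio of 2.72 that was 1.73 with low cells weighted by depth, and KCNQ1OT1, an antisense RNA of an imprinted region, 3.91-fold (3.18 to 4.78). Of 14 nuclear-retained RNAs and small nucleolar RNA host genes tested, 9 were at least 1.5-fold higher and 2 lower. Their median log2 ratio was 1.08. The backgrounds over all genes were 49.0% higher and 13.7% lower. Of all 91 non-coding genes tested, 61.5% were higher and 9.89% lower, with a median of 1.29, so the list did not stand out among them. In the knockouts 8 of 14 were higher and none lower in C1-sgEED, and 8 of 14 were higher and 5 lower in C1-sgKMT2D. The lower ones in C1-sgControl were ZFAS1, at 384 against 846 CPM, and EPB41L4A-AS1, at 38.2 against 70.3 CPM. ZFAS1 is a host of small nucleolar RNAs. In high cells of the knockouts MALAT1 was 5.25-fold higher in C1-sgEED and 6.2-fold in C1-sgKMT2D. MALAT1 exceeded the 95th percentile of the low cells in 79.5% of the high C1-sgControl cells.

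Messages for proteins of nuclear speckles and splicing followed the same direction. Of 30 tested, 23 were at least 1.5-fold higher and none lower, with a median log2 ratio of 1.21. PNISR, a serine and arginine rich speckle protein, was at 581 and 175 CPM, 3.32-fold higher (2.91 to 3.78). LUC7L3, which associates with the U1 particle, was 3.41-fold higher (2.85 to 4.07), and RBM5, a splicing regulator, 3.99-fold (2.91 to 5.38). SRSF3, a small splicing factor, was at 204 against 300 CPM, 1.47-fold lower. Relative to the median gene, the list was at 0.66, and with low cells weighted by depth it was at 1.06.

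All 21 genes for laminins, integrins and their partners at the cell base were at least 1.5-fold higher in high cells of C1-sgControl, as they were in both knockouts. The median log2 ratios were 1.66, 1.71 and 1.98. LAMB3, the beta chain of laminin-332, was at 3977 CPM in high and 943 CPM in low C1-sgControl cells, 4.22-fold higher (4.01 to 4.44), and LAMA3, its alpha chain, was 3.31-fold higher. COL17A1, the hemidesmosome collagen, was 3.35-fold higher (2.97 to 3.76), ITGB4, the laminin receptor subunit of hemidesmosomes, 2.92-fold (2.63 to 3.23) and ITGA6, its partner, 2.60-fold (2.32 to 2.92). Per cell, the list held a median of 1.77% of non-MT- UMIs in high and 0.550% in low C1-sgControl cells. The knockouts started from a lower level, with 0.234% in low and 0.891% in high C1-sgEED cells, and 0.223% and 1.13% in C1-sgKMT2D. Relative to the median gene, the list was at 1.12 in C1-sgControl.

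Other epithelial genes split within the list. Keratins were nearly level: KRT5, a basal keratin, was at 2504 CPM in high and 2583 CPM in low cells, and KRT17 at 6964 and 7927 CPM. Junction genes were higher, with CDH1 (E-cadherin) at 295 and 72.1 CPM, 4.09-fold (3.38 to 4.92), and DSP (desmoplakin) at 1503 and 509 CPM, 2.95-fold (2.72 to 3.20). Over the 39 epithelial genes tested, 18 were higher and 2 lower, and the median log2 ratio of 0.55 was that of all genes.

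Epithelial markers were present at similar summed levels in both groups, while mesenchymal markers differed. The 6 epithelial markers summed to 11787 CPM in high and 12444 CPM in low cells, mostly from the keratins KRT17, KRT5 and KRT14. All 4 immune and all 3 endothelial markers were at 0 UMIs in high cells, which allows up to 6.36 CPM each (3 counts). The 3 neural markers summed to 2.12 CPM, which is 1 UMI, as did ESR1, PGR and FOXA1, the 3 defining luminal markers. A wider list of 13 luminal mammary genes, which also holds KRT8 and KRT18, keratins of simple epithelia, summed to 818 CPM in high and 1397 CPM in low cells, and all 3 of its genes tested lay below the median gene. The 10 fibroblast genes summed to 223 CPM in high and 150 CPM in low cells. Of these, PDPN was at 84.8 and 62.6 CPM, THY1 at 69.96 and 61.6 CPM, and FAP at 46.6 and 8.47 CPM, while COL1A2, LUM and PDGFRA had no UMI in high cells. The part of such cells in the differences was not tested. The 6 mesenchymal markers summed to 11219 CPM in high against 4012 CPM in low cells, and most of this was FN1, fibronectin, at 10000 against 2753 CPM, 3.63-fold higher (3.52 to 3.75). VIM, vimentin, was at 1208 against 1256 CPM, and ZEB1, COL3A1 and DCN each had 1 UMI in high cells. A score that divides mesenchymal by all mesenchymal and epithelial list UMIs passed 0.5 in 77 C1-sgControl cells, of which 65 were high cells. In the knockouts, where such cells are many, the share of high cells was alike on both sides of 0.5: 2.30% below and 2.42% above in C1-sgEED, and 2.63% and 2.56% in C1-sgKMT2D. Restricted to cells at or below 0.5, C1-sgControl still held 15.03% high cells.

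Ribosomal protein messages were lower as a block. Of 83 cytosolic ribosomal protein genes tested, 78 were at least 1.5-fold lower in high C1-sgControl cells and none higher, with a median log2 ratio of -1.19. RPS12, of the small subunit, was at 2434 CPM in high and 6827 CPM in low cells, and RPL32, of the large subunit, at 1781 and 4931 CPM. RPS21 stood apart at 2605.5 and 2543 CPM. RPL7L1, a ribosome biogenesis factor that the list holds by name, was at 157 and 110 CPM. In the knockouts, 70 of 83 were lower in C1-sgEED and 77 of 83 in C1-sgKMT2D, again with none higher. Per cell, 97.8% of the high C1-sgControl cells were below the 5th percentile of low cells for the ribosomal protein share. The list's median was -0.998 after low cells were weighted by depth and -1.73 relative to the median gene.

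Translation factors split. TPT1, a small protein whose message is regulated like those of the ribosome, was at 2427 and 6809 CPM, and EEF1A1, elongation factor 1 alpha, at 4064 and 8560 CPM. EIF4EBP1, a small inhibitor of cap binding, was 3.47-fold lower (2.52 to 4.91), and EIF3I, a subunit of initiation factor 3, 2.87-fold lower (2.13 to 3.96). With a limit of 15% their log2 ratios were -1.10 in place of -1.78 and -0.85 in place of -1.51. In the knockouts the counting intervals of both genes included 1. EIF4EBP1 was 1.70-fold lower (0.97 to 3.30) in C1-sgEED and 1.40-fold (0.89 to 2.37) in C1-sgKMT2D. EIF3I was 1.39-fold lower (0.83 to 2.54) in C1-sgEED and 1.36-fold (0.87 to 2.27) in C1-sgKMT2D. By contrast EIF4G1, the large cap-complex scaffold, was at 373 against 125 CPM in C1-sgControl, 2.98-fold higher (2.52 to 3.49). EIF3A, the largest subunit of initiation factor 3, was 2.02-fold higher there (1.75 to 2.32). In all, 15 of 34 were lower and 3 higher, the third being EIF3B at 1.69-fold. The backgrounds over all genes were 13.7% lower and 49.0% higher. Relative to the median gene, 22 were lower and 1 higher, and the list's median was -1.07.

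Nuclear-encoded respiratory chain messages were lower in the cells whose mitochondrial-encoded partners took a larger share. All subunits tested counted 76 genes. In C1-sgControl, 15 of 16 ATP synthase genes were at least 1.5-fold lower (median log2 ratio -0.87), 19 of 36 complex I genes (-0.61), 5 of 9 complex III genes (-0.60) and 7 of 11 complex IV genes (-0.68). ATP5G3, a membrane ring subunit of ATP synthase, was at 352 and 747 CPM, UQCRH, the hinge subunit of complex III, at 390 and 966 CPM, and COX7B of complex IV at 189 and 437 CPM. The exceptions past 1.5-fold were NDUFS1, a large iron-sulfur subunit of complex I, at 80.6 against 43.0 CPM, 1.87-fold higher (1.31 to 2.62), and SDHA, the flavoprotein of complex II, at 148 against 80.3 CPM, 1.85-fold higher (1.42 to 2.36). With low cells weighted to the depths of the high cells, their medians were -0.42 for ATP synthase, -0.27 for complex I, -0.18 for complex III and -0.62 for complex IV.

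Other lists of mitochondrial genes differed in direction. Of 70 mitochondrial ribosome genes, 30 were lower and none higher, with a median of -0.54 that became -0.11 after weighting by depth. Among import factors and chaperones, 8 of 30 were lower and 5 higher. CHCHD2, a small intermembrane protein, was at 413 and 910 CPM, whereas LONP1, a matrix protease, was 2.01-fold higher (1.27 to 3.04). Of 9 genes for mitochondrial DNA expression, 4 were higher and 3 lower, against backgrounds of 49.0% and 13.7%. Their median of 0.55 was that of all genes. The higher ones included POLRMT, the mitochondrial RNA polymerase, at 44.5 and 13.0 CPM, 3.43-fold (2.05 to 5.49). POLRMT passed the minimum of 20 CPM only through its level in high cells. LRPPRC, which stabilises mitochondrial messages, was also higher, at 2.01-fold (1.38 to 2.83). TFAM, which packages mitochondrial DNA, was level at 55.1 and 51.8 CPM. Mitophagy and dynamics genes had 5 higher and 2 lower of 13, with a median of 0.52 that became -0.31 in CPM of all gene UMIs.

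Lists of stress and death programmes lay on both sides of the median of all genes. Intrinsic apoptosis genes had a median of 0.30, with 6 of 17 higher, against the background of 49.0%. The higher ones included MCL1, an inhibitor of apoptosis, at 511 and 208 CPM, 2.46-fold (2.14 to 2.81), while BAX, a pore-forming effector, was at 157 and 193 CPM. Targets of p53 had a median of 0.54, with 10 of 21 higher, near the same background. One of them, MDM2, which degrades p53, was 2.52-fold higher (2.17 to 2.90). Heat shock genes had a median of 0.05. Relative to the median gene these 3 lists were at -0.25, -0.01 and -0.49, so their direction depends on the scale. In C1-sgEED they were at 0.18, 0.79 and -0.42 relative to the median gene, and in C1-sgKMT2D at -0.01, 0.50 and -0.45. The p53 list thus lay above the median gene in the knockouts only. In C1-sgControl the ATF4 list, at 0.55, lay at the median of all genes. Genes of the unfolded protein response of the endoplasmic reticulum had a median of 0.90, with 11 of 19 higher and none lower, against the background of 49.0% higher. Their median was 0.36 relative to the median gene, 0.29 in CPM of all gene UMIs and 0.50 after weighting by depth. Relative to the median gene of C1-sgEED, 1 of 18 was higher and 5 were lower. HSPA5, the chaperone BiP, was at 617 and 248 CPM, 2.49-fold (2.19 to 2.81), while CALR was at 485 and 468 CPM. Immediate-early genes had 17 of 30 higher and none lower, near the same background, with a median of 0.63. It was 0.09 relative to the median gene, where 4 were higher, and 0.12 in CPM of all gene UMIs. FOSB was at 946 and 340 CPM, and FOS at 748 and 607 CPM.

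**Figure D4:**
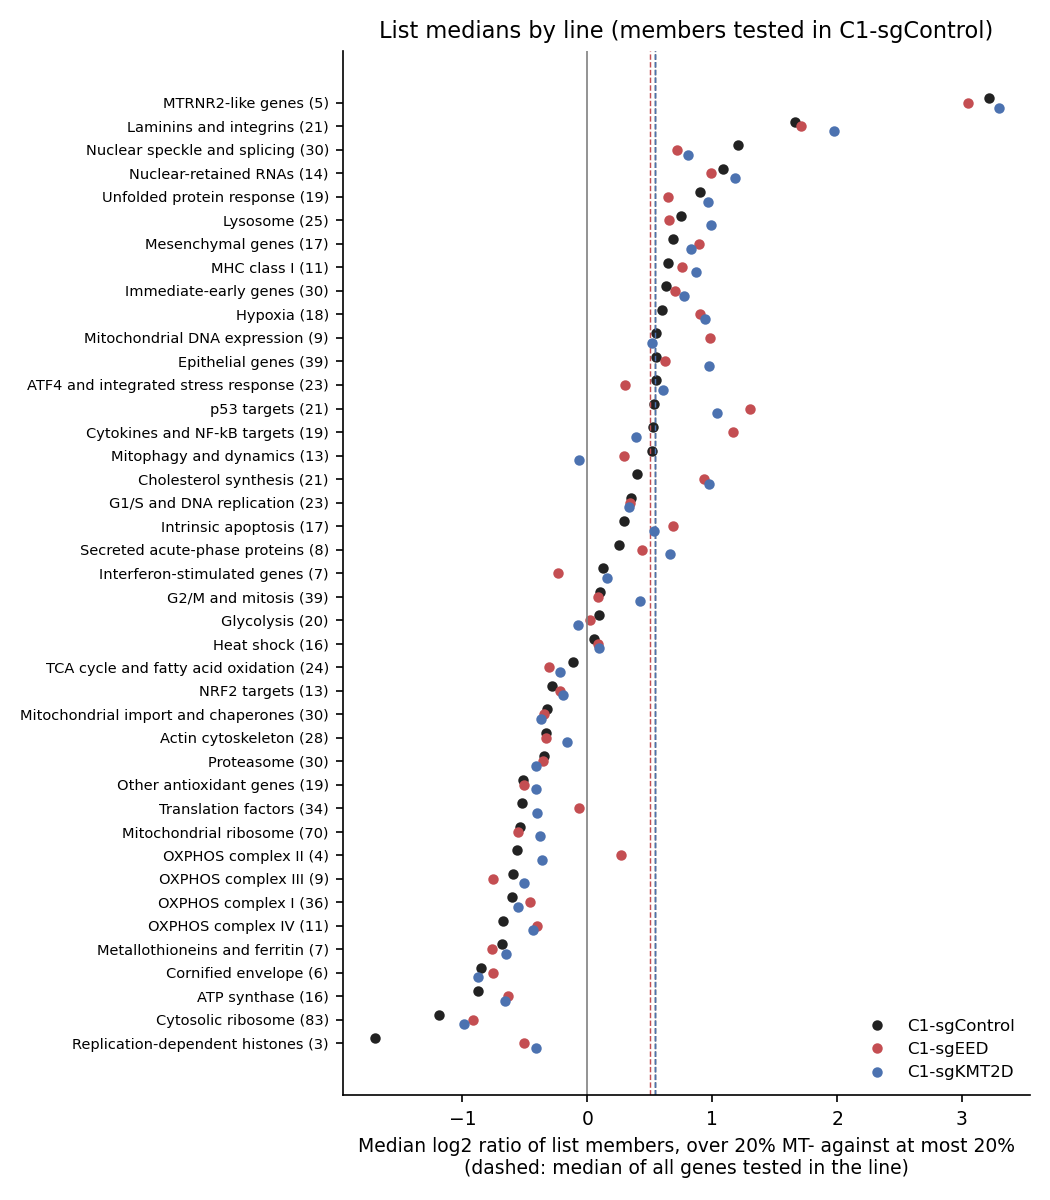
Median log2 ratio of high to low cells for each list with at least 3 genes tested in C1-sgControl, in the 3 lines, with the number of genes tested in C1-sgControl in brackets and the median of all genes tested dashed. MTRNR2-like genes (3.22, 3.05 and 3.29) and laminins and integrins lie at the right end in each line, and cytosolic ribosomal proteins (-1.19, -0.91 and -0.99) on the left.

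Among metabolic enzymes and transporters, some genes were higher and some lower. GAPDH was at 2775 and 6120 CPM, 2.21-fold lower (2.09 to 2.33), and LDHA, lactate dehydrogenase, at 1281 and 2516 CPM. SLC2A1, the main glucose transporter, was 2.51-fold higher (1.96 to 3.17), and SLC16A3, a lactate exporter, 2.64-fold (2.12 to 3.26). Over the 20 glycolysis genes 9 were higher and 5 lower, against backgrounds of 49.0% and 13.7%. Their log2 ratios ran from -1.14 to 2.76, with a median of 0.09 that was -0.45 relative to the median gene. FTH1 and FTL, the chains of the iron store ferritin, were lower, FTH1 at 6280 and 14915 CPM, whereas TFRC, the receptor that imports iron, was 2.38-fold higher (1.92 to 2.92). The list of cholesterol synthesis genes had 9 of 21 higher, against the same background of 49.0%. Its median of 0.40 turned to -0.15 relative to the median gene.

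HIST1H4C, a replication-dependent histone H4 gene (chr6:26103876-26104310, plus strand), had the lowest ratio of all genes of at least 50 CPM. It was at 61.5 CPM in high and 268 CPM in low cells, 4.35-fold lower (3.02 to 6.52). After weighting by depth its log2 ratio was -0.15 in place of -2.10. That weighted value rests on few low cells, so how far the difference goes with depth stays uncertain. Genes of G2 and mitosis had a median of 0.10, which was -0.44 relative to the median gene and 0.64 after weighting by depth, so no direction is given for them.

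The remaining genes among the 10 highest ratios of at least 50 CPM were VMP1, a membrane protein of autophagy, at 869 and 149 CPM, 5.84-fold (5.21 to 6.52), RALGAPA1, a GTPase-activating protein, 6.11-fold (4.27 to 8.60), DDX39B, a splicing and export helicase, 6.17-fold (4.497 to 8.36), ADAMTS6, a secreted protease, 5.76-fold (4.55 to 7.24), and RSRP1, 5.55-fold (4.26 to 7.16). With low cells weighted by depth the log2 ratio was 1.94 in place of 2.54 for VMP1, 1.75 in place of 2.54 for RALGAPA1 and 1.51 in place of 2.57 for DDX39B. That of ADAMTS6 was 1.53 in place of 2.49 with at least 1000 genes per cell. All 5 genes were also higher in high cells of both knockouts, with VMP1 at 5.004-fold in C1-sgEED and 5.73-fold in C1-sgKMT2D. Only for DDX39B in C1-sgEED, at 2.91-fold (0.78 to 7.57), did the counting interval include 1. Others among the 10 lowest ratios were ARL2, a small GTPase, at 31.8 and 108 CPM, TMEM126A, an assembly factor of complex I, at 27.6 and 88.9 CPM, MPC2, a subunit of the mitochondrial pyruvate carrier, at 48.8 and 150 CPM, MYL6B, a myosin light chain, at 36.0 and 109 CPM, RPS15A at 988 and 2937 CPM, and ESD, a small esterase, at 63.6 and 184 CPM. These were not checked as firmly in the knockouts. There 1 UMI is 14.3 CPM in high C1-sgEED and 11.9 CPM in high C1-sgKMT2D cells, against 2.12 CPM in C1-sgControl. Each gene was also lower in high cells of both knockouts, but many counting intervals included 1. That was so for MYL6B and ESD in both, for ARL2 and TMEM126A in C1-sgEED, and for MPC2 in C1-sgKMT2D. For RPS15A the interval was clear of 1 in both. After weighting by depth in C1-sgControl, the log2 ratio of ESD was -0.47 in place of -1.52 and that of ARL2 -1.002 in place of -1.74. The ratio of MPC2 was then -0.998 in place of -1.598 and that of TMEM126A -2.41 in place of -1.65. With a limit of 15%, ESD was at -0.75, ARL2 at -1.05 and RPS15A at -0.83 in place of -1.57.

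The ratio rose with coding length, 1 of several related lengths of a gene. Coding length in GENCODE release 29 had a median of 2091 bases among genes at least 1.5-fold higher, 591 among those lower, and 1305 among all genes tested. With the genes in 10 equal groups from the shortest to the longest coding length, the median log2 ratio was higher in every step, from -0.62 (up to 489 bases) to 1.43 (3654 bases or more). In the shortest group, 44 genes of 639 were at least 1.5-fold higher and 338 lower, and in the longest group 612 were higher and 4 lower. The knockouts gave -0.53 to 1.34 in C1-sgEED and -0.44 to 1.56 in C1-sgKMT2D. Without ribosomal, respiratory chain and mitochondrial ribosome genes the shortest group was at -0.54 and the longest at 1.43. The ends kept their order on both sides of the median level of 48.9 CPM, with -0.35 and 1.41 among genes under it. Genes at or over it had -0.68 and 1.48. Levels still vary within each side, and the part of abundance was not tested further. After weighting low cells by depth, the ends were at -0.36 and 1.11. Total transcript length, exon number and the span of the gene went the same way, with medians of 4402 bases, 13 exons and 53.7 kb among higher genes and 1319 bases, 5 exons and 13.1 kb among lower ones. The 3′ untranslated region was also longer, with medians of 1509 bases among higher and 370 among lower genes. These lengths are related to each other across genes, and which of them the ratio follows was not tested.

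**Figure D5:**
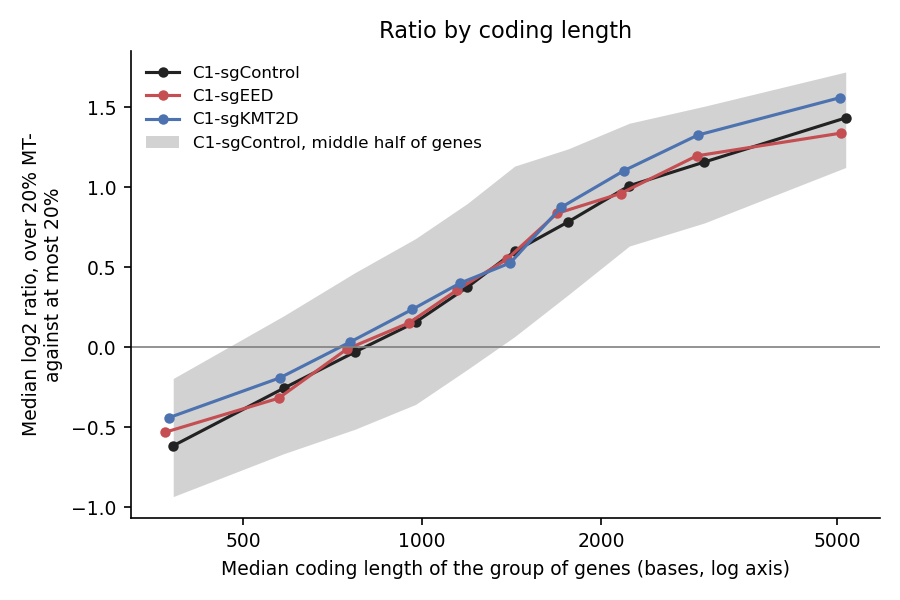
Median log2 ratio of high to low cells (y) in 10 groups of the genes tested, ordered by coding length and placed at the median coding length of the group (x, log axis), for each line; grey, the middle 50% of genes in C1-sgControl. The medians go from -0.62 to 1.43 in C1-sgControl and nearly coincide between the lines.

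Several lists lay apart from other genes of their own length. The laminin and integrin genes had a median coding length of 3516 bases, and all 21 lay above the median of their own length group, by a median of 0.34. Speckle and splicing genes lay 0.65 above, with 21 of 30 above. Of the 83 ribosomal protein genes 78 lay below their length group, by a median of -0.67, as did all 16 ATP synthase genes (-0.40) and 27 of 36 complex I genes (-0.33). Proteasome subunits had 29 of 30 below, by -0.61. Genes whose protein has a long hydrophobic stretch, as membrane and secreted proteins do, were also higher within broad groups of coding length. The stretch was defined as a window of 19 residues with a mean Kyte-Doolittle hydropathy of at least 1.6. With the genes in 4 groups by coding length, in the shortest group the medians were -0.03 with and -0.49 without such a stretch, and in the longest 1.41 and 1.18. The same order of the medians held in each of the 4 groups of C1-sgEED and C1-sgKMT2D. Genes with and without a stretch may still differ in length within a group, which was not tested.

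The contrast in the knockouts shared its direction with C1-sgControl for most genes that could be compared. Of the genes at least 1.5-fold higher in high C1-sgControl cells, 2433 were also tested in C1-sgEED, where 1879 (77.2%) passed 1.5-fold in the same direction and 92 in the opposite one. In C1-sgKMT2D it was 1940 of 2438 (79.6%), with 47 opposite. Of the lower genes, 496 of 871 (56.9%) were lower in C1-sgEED, with 29 opposite, and 464 of 858 (54.1%) in C1-sgKMT2D, with 27 opposite. The background in C1-sgEED was 47.7% of 6329 genes higher and 18.8% lower, and in C1-sgKMT2D 49.0% of 6194 higher and 16.0% lower. With the counting interval clear of 1, it was 18.2% and 5.40% in C1-sgEED, and 23.2% and 5.21% in C1-sgKMT2D. Relative to the median gene of the line, it was 30.5% and 31.9%, and 34.0% and 30.6%. The sums rest on 70144 and 83914 non-MT- UMIs in the high cells of the knockouts, against 471687 in C1-sgControl, so single genes are less precise there. At 14.3 and 11.9 CPM for 1 UMI, genes near the minimum of 20 CPM can pass 1.5-fold by counting error alone, and the shares past 1.5-fold in the knockouts, and the genes counted there in the same or opposite direction, are to be read with that in mind.

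Transcripts from other cells of the pool were low in both groups of C1-sgControl. The 9 genes chosen from earlier results as abundant in the knockouts, such as MGP and PTX3, summed to 29.7 CPM in high C1-sgControl cells (exact Poisson interval 16.2 to 49.8, 14 UMIs) and 14.6 CPM in low cells (12.2 to 17.3). The next most abundant hashtag had a median of 15 UMIs in high and 12 in low cells. Their part in the differences above was not tested. Droplets holding cells of different lines are removed by the hashtag rule, and droplets with several cells of 1 line are not. No barcode occurs more than once.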

How the data were processed

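The files are a 10x Genomics single-cell gene expression library and its hashtag library, deposited as 1 joint matrix of UMI counts per gene or hashtag and barcode. The header of the deposited counts names Cell Ranger 3.0.2, and the build, GRCh38, is from the submitters' processing notes. For the annotation release, the sources used here say nothing. Cells were filtered as described above, and no doublet caller was run. UMIs were summed over high and low cells of each line and scaled to CPM of non-MT- UMIs. Ratios carry exact conditional binomial 95% intervals, shares Clopper-Pearson intervals and sums Poisson intervals. Log2 ratios use a pseudocount of 1 CPM. Genes tested had a mean of at least 20 CPM. Summed totals per line and group ran from 70144 to 12755992 non-MT- UMIs.

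Genes were named by rule: the 10 highest and 10 lowest ratios of at least 50 CPM without clone names, and members of 46 gene lists, 5 of them markers of other cells. Some genes that this rule names are not reported here. Of the list symbols, 12 are not in the matrix. The members, lists and rules were chosen with earlier results of these data known. Coding lengths and sequences came from GENCODE release 29, matched by gene identifier for 6476 of 6477 genes. The release used for counting may differ from it. Other limits, gene minimums, hashtag rules, scalings, weightings, filters and pseudocounts were tried. Software was Python 3.11.15, NumPy 2.4.6, SciPy 1.17.1, pandas 2.3.3 and Biopython 1.88, and the ratio intervals were tested on simulated counts.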

Additional observations from a re-analysis of the deposited data

Results flagged for a closer look

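Barcodes that the rule on hashtags and genes left out of every line, and so out of the ratios of high to low cells, were over 20% MT- UMIs in 30.9% of cases, more than in any line. Of these 1536 barcodes, 594 had under 500 genes, and 444 of them (74.7%) were over 20%. Most of the 594 met the hashtag part of the rule (252 for C1-sgControl, 101 for C1-sgEED, 76 for C1-sgKMT2D and 49 for hashtag 2), and those of the 3 lines are counted in the shares given without a minimum of genes. In 306 of the 594 the top hashtag was hashtag 1, the tag of C1-sgControl. Another 916 had a second hashtag within 10 times of the first, and 30 of them (3.28%) were over 20%. The remaining 26 had a top hashtag under 150 UMIs, and none was over 20%.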

How the results depend on the processing

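With limits of 15%, 25% and 30%, the share of high cells was 23.1%, 15.6% and 12.4% in C1-sgControl and 4.04%, 1.73% and 1.47% in C1-sgEED, and 3.48% at 15% in C1-sgKMT2D. At 15%, 454, 775 and 634 genes were lower in C1-sgControl, C1-sgEED and C1-sgKMT2D, and 2 lists, against 8 at 20%. With at least 200 genes per cell the shares were 24.3%, 5.43% and 4.89%, and with no minimum, added after seeing the data, 25.5%, 5.81% and 5.08%. With at least 1000 genes they were 4.96%, 0.423% and 0.563%, non-MT- UMIs were 2.68-fold lower in high cells, and 2 lists were lower. In CPM of all gene UMIs, 1403 genes were higher and 1721 lower in C1-sgControl, 1658 higher in C1-sgEED, and 1492 and 1777 in C1-sgKMT2D, with 3 lists higher, against 10, and 18 lower. Without ribosomal protein genes in the total, 1457 were lower in C1-sgControl and 1693 in C1-sgKMT2D, with 5 lists higher and 13 lower. Relative to the median gene, 1841 and 1922 were higher and lower in C1-sgControl, 1933 and 2019 in C1-sgEED, and 1898 lower in C1-sgKMT2D, with 3 and 17 lists. With low cells weighted by depth 3 lists were lower, and in cells with a mesenchymal share of at most 0.5 the share of high cells was 15.03%. At a mean of at least 5 CPM, 5577, 5306 and 5678 genes were higher in the 3 lines, and 2037 and 1704 lower in the knockouts. At 100 CPM, 468, 451 and 447 were higher and 449, 427 and 372 lower. Stricter filters test fewer genes; the cause of the other shifts was not tested. No value that passed 1.5-fold reversed. Ratios of the 20 named genes kept within the 1.5-fold margin in 397 of 420 repeats, and list medians in 877 of 894. No paired analysis was possible because each line is 1 sample in 1 library. Depth limits the knockouts most, with 56 and 62 high cells.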

Other observations

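The line of hashtag 2 is not given in the labels, so its 1961 cells entered no comparison. Its 35 cells over 20% MT- UMIs (1.78%) had medians of 1253 non-MT- UMIs against 4766.5 in its other cells, 581 against 362.5 MT- UMIs, 14.9% against 27.8% ribosomal protein UMIs, 5.14% against 1.27% MALAT1 and 0.748% against 0.225% laminin and integrin UMIs.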
